A study of Mus musculus with 4 samples.

Results

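Immunoglobulin family adhesion molecules are cell surface proteins whose outer part carries immunoglobulin-like domains, and 9 of their genes are described among the 19938 genes measured. They are Ncam1, Mcam, L1cam, Alcam, Icam1, Vcam1, Cadm1, Thy1 and Ceacam1. The genes were chosen by family and selected with the measured difference between untreated and TGFβ arrays known. Their values in that comparison are therefore a description, and whether they pass in limma is no evidence about them. Each gene was read by its brightest probe set with a single gene symbol. Each of the 9 has only 1 such probe set, so isoforms could not be told apart.

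The samples were cultures of Py2T, a mouse breast cancer cell line, in DMEM with glutamine, antibiotics and FCS. The 2 untreated samples received no TGFβ, and the 2 TGFβ samples received it at 2 ng/ml for 5 days. The labels describe the samples of a group as biological replicates without saying how the cultures were kept apart, so errors and p-values measure only the spread between these samples. The values describe 1 line. In bulk RNA, fewer cells that express a gene and less RNA per cell cannot be told apart.

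Some of these molecules bind the same molecule on a neighbouring cell, as Ncam1, L1cam, Alcam, Cadm1 and Ceacam1 do, and others bind integrins on leukocytes, as Icam1 and Vcam1 do. Where they span the membrane, their tails can meet the cytoskeleton and signalling kinases, and several are cut from the surface by metalloproteases. TGFβ is a standard inducer of epithelial to mesenchymal transition in mammary epithelial cells, in which the adhesion molecules on the cell surface are exchanged.

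Values are RMA summaries on the log2 scale, with array medians of 6.74 to 6.76 over all probe sets. With 4 arrays, their small number sets the precision. The epithelial keratin Krt8 read 13.48 to 13.61 and Cdh1, the epithelial cadherin, read 11.59 and 11.55 on the untreated and 9.97 and 10.66 on the TGFβ arrays. Of 7 epithelial markers 3 fell in limma (Cdh1, Epcam and Cldn7) and 4 did not pass. Among those 4, Cldn3 was lower by 0.81 (limma adjusted p = 0.0514), while Krt8, Krt18 and Krt19 differed by 0.06, -0.11 and -0.08. At an unadjusted p under 0.05 in limma, 4 of the 7 were lower. Cdh1 fell by 1.25 on the log2 scale (limma adjusted p = 0.0171), a call that ended on omitting untreated replicate 1 (adjusted p = 0.0567). Of 6 endothelial markers, which read 4.82 to 6.98, 0 passed in limma and 0 had an unadjusted p under 0.05, and the leukocyte marker Ptprc read 5.49 to 5.57. A mean under 7, a fixed cut just above the endothelial readings, is taken as low, where a change is hard to measure. The cut is broad, as both means lay under 7 for 9022 of all 19938 genes.

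Upstream sequences, running from 250 bases before to 50 bases after the RefSeq start (build GRCm38.p6), were matched by symbol for 5 of the 9 genes. These are Mcam, Alcam, L1cam, Icam1 and Ceacam1. Mcam and Alcam are shown because both rose, beside Icam1 and Ceacam1, which did not. Capitals mark matches to 6 motifs, with 0 overlaps between matches of different motifs. The motifs were the TATA box with the letters TATAAA on the strand of the gene and, on both strands, GGGCGG (GC box), GGAATG (TEAD), CAGGTG (the E-box of Zeb and Snail factors), GTCTAGAC (Smad) and GGNNNTTCC (a loose NF-κB motif).
Mcam (chr9:44134408-44134707, plus strand): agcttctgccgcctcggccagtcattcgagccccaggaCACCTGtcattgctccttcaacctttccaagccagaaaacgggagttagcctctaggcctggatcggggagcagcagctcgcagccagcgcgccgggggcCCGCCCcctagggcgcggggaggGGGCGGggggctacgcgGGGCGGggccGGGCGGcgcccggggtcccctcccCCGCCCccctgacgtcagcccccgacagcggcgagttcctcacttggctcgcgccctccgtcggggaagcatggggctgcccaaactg
Alcam (chr16:52453032-52453331, minus strand): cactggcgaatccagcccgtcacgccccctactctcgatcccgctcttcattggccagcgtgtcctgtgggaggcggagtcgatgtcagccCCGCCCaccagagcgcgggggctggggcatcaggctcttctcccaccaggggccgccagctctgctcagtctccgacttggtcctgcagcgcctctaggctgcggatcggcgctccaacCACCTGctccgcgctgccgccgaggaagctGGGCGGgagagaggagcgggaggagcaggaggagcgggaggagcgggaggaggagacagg
Icam1 (chr9:21015690-21015989, plus strand): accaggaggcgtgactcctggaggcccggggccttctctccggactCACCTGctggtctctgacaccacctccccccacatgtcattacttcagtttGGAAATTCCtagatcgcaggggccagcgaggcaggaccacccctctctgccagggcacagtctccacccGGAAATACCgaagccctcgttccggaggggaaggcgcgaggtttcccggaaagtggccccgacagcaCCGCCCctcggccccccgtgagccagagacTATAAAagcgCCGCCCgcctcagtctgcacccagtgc
Ceacam1 (chr7:25477576-25477875, minus strand): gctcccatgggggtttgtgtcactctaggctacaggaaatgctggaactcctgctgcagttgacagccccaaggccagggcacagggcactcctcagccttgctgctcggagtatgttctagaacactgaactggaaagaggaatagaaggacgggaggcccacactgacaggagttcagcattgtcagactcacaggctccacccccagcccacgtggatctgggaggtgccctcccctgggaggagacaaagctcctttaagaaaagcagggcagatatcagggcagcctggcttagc

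The window of Mcam holds 5 GC boxes and that of Alcam 2, and both lack the TATA letters. Each holds 1 CAGGTG E-box, at position -212 in Mcam and -40 in Alcam, and Icam1 holds 1 at -204. Among all 32851 windows 35.7% hold the GC box, 20.2% the E-box, 18.5% the loose NF-κB motif, 14.7% the TEAD motif, 8.32% the TATA box and 0.213% the Smad motif. Among these 5 genes Icam1 is the one with the loose NF-κB motif, at -153 and -84, and with the TATA letters. Those letters begin at +14, after the RefSeq start and not upstream of it. Ceacam1 holds 0 of the 6 motifs, with a GC content of 57.3% against 72.7% in Mcam, 69.7% in Alcam and a median of 52.7% over all windows. A match describes letters in a window and is not a bound site.

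TGFβ and untreated cultures were compared to describe the adhesion genes after the treatment. Of the 9 genes 3 passed as higher (Ncam1, Mcam and Alcam), 2 as lower (L1cam and Ceacam1) and 4 did not pass (Icam1, Vcam1, Cadm1 and Thy1), at an adjusted p under 0.05 in limma. Over all genes 13.6% passed, 6.49% as higher and 7.15% as lower. Groups did not overlap for 6 of the 9, against 52.6% of all genes, and 3 differed at least 2-fold, against 3.54% of all genes. Nothing is read from these counts, because the genes were picked with the comparison in view. The median difference was 0.03 on the log2 scale for the 9 genes and 0.01 for all genes.

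**Figure D1:**
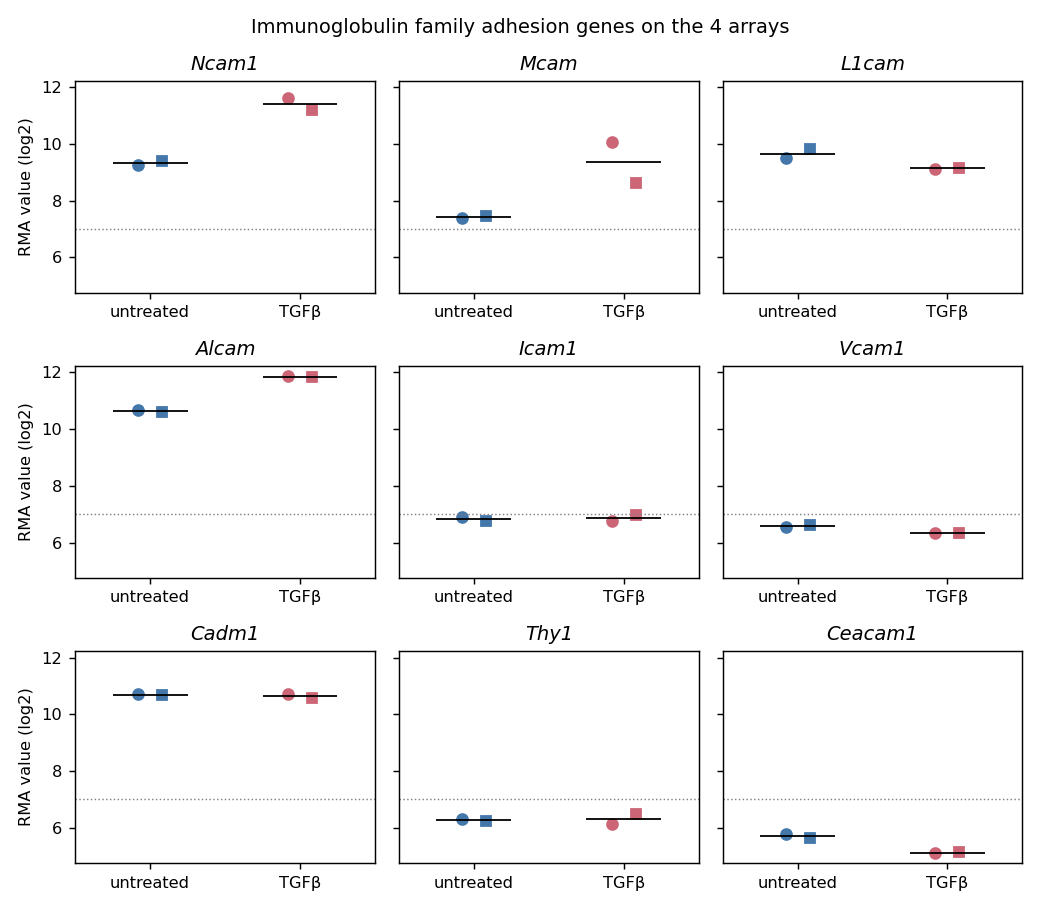
RMA values (log2) of the 9 adhesion genes on the 2 untreated arrays (blue) and the 2 TGFβ arrays (red), with circles for replicate 1, squares for replicate 2, a bar at each group mean and a dotted line at 7. Ncam1, Mcam and Alcam lie higher on both TGFβ arrays, and the TGFβ values of Mcam stand 1.43 apart.

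Ncam1, a homophilic adhesion molecule best known from neurons and muscle, read 9.25 and 9.39 on the untreated and 11.61 and 11.21 on the TGFβ arrays. Both TGFβ arrays were far above both untreated arrays. Ncam1 rose 4.26-fold, a log2 difference of 2.09 ± 0.14 (SE, n = 2 per group), larger in size than that of 99.3% of all genes. With each array left out in turn the difference lay between 1.89 and 2.29.

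Mcam, also called CD146 and known from blood vessels and melanoma, read 7.40 and 7.48 on the untreated and 10.07 and 8.64 on the TGFβ arrays. The untreated values nearly coincided, and the TGFβ values lay above them but 1.43 apart from each other. Mcam rose 3.77-fold, a log2 difference of 1.92 ± 0.43 (SE), with an SD of 1.01 between the TGFβ arrays. Omitting TGFβ replicate 1 brought the difference to 1.20, and omitting TGFβ replicate 2 to 2.63. Mcam did not pass without untreated replicate 1 (difference 1.87), without untreated replicate 2 (difference 1.96), with the replicate number as a block or with an intensity trend and robust variances.

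The TGFβ array with the higher Mcam value also had the higher Ncam1 value, by 0.40, whereas Alcam differed by 0.05 between the same arrays. Cdh1 was lower by 0.69 and the tight junction gene Cldn7 by 0.47 on that array. The 7 epithelial markers averaged 11.28 and 11.19 on the untreated and 10.30 and 10.60 on the TGFβ arrays. Their part in the spread of Mcam was not tested.

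Alcam, or CD166, which binds itself and the lymphocyte receptor Cd6, read 10.68 and 10.62 on the untreated and 11.88 and 11.83 on the TGFβ arrays. Replicates nearly coincided and the groups were well apart. Alcam rose 2.31-fold, a log2 difference of 1.21 ± 0.07 (SE), and 1.17 to 1.24 with each array left out. Cd6 read 5.97 to 6.28, under 7 on every array.

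L1cam, a neural molecule that binds itself and integrins, read 9.50 and 9.81 on the untreated and 9.13 and 9.17 on the TGFβ arrays. Both TGFβ values lay below both untreated values, and the untreated values were further apart than the TGFβ values. L1cam fell 1.42-fold, a log2 difference of -0.51 ± 0.12 (SE). It did not pass without untreated replicate 2 (difference -0.35), without TGFβ replicate 1 (-0.49), without TGFβ replicate 2 (-0.53), with the replicate block, with cyclic loess or with quantile normalization repeated.

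Ceacam1, a homophilic inhibitory receptor of epithelial contacts, read 5.79 and 5.65 on the untreated and 5.10 and 5.15 on the TGFβ arrays. The groups did not overlap, and all values were under 7. Ceacam1 fell 1.51-fold, a log2 difference of -0.59 ± 0.08 (SE). Its close paralogue Ceacam2 read 5.87 and 5.78 on the untreated and 5.79 and 5.92 on the TGFβ arrays, and whether probes of one also bind transcripts of the other was not tested.

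Cadm1, a homophilic molecule of epithelial contacts and synapses, read 10.71 and 10.67 on the untreated and 10.73 and 10.57 on the TGFβ arrays. The groups overlapped, with a log2 difference of -0.04 ± 0.09 (SE) that was 0.04 without TGFβ replicate 2.

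Icam1, a ligand of leukocyte integrins, read 6.89 and 6.77 on the untreated and 6.77 and 6.99 on the TGFβ arrays, a log2 difference of 0.05 ± 0.10 (SE). Thy1, a GPI-anchored molecule of T cells, neurons and fibroblasts, read 6.31 and 6.24 on the untreated and 6.13 and 6.48 on the TGFβ arrays, a difference of 0.03 ± 0.13. The groups overlapped for both genes. Vcam1, a ligand of the integrin formed by Itga4 and Itgb1, read 6.55 and 6.63 on the untreated and 6.34 and 6.34 on the TGFβ arrays, a difference of -0.25 ± 0.07 without overlap that did not pass. All of these means lay under 7. Omission of untreated replicate 2 took the Icam1 difference to -0.02, and omission of TGFβ replicate 2 took it to -0.06 and that of Thy1 to -0.15.

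**Figure D2:**
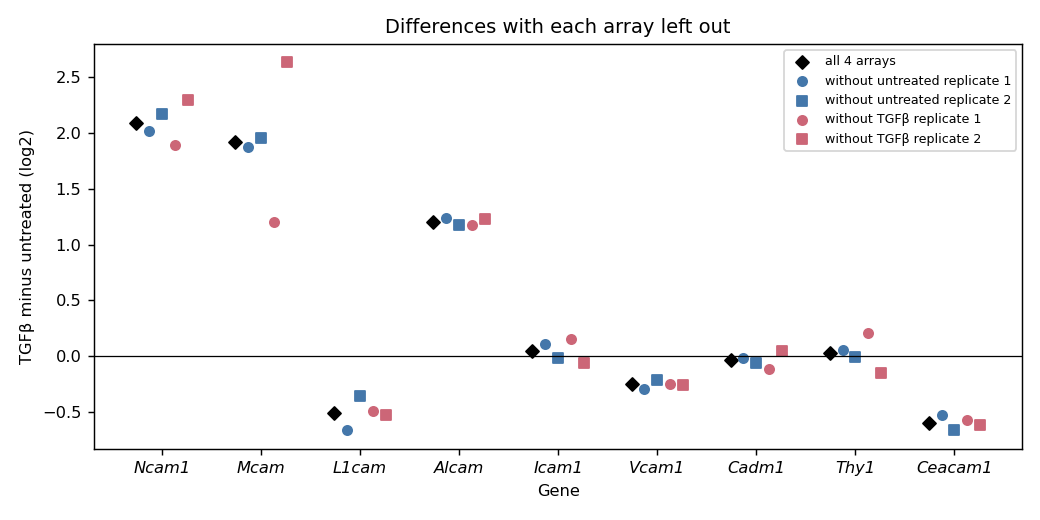
Log2 difference (TGFβ minus untreated) of each of the 9 genes with all 4 arrays (black diamonds) and without 1 untreated array (blue) or 1 TGFβ array (red), where circles omit replicate 1 and squares omit replicate 2. Ncam1 and Alcam keep their size, and Mcam runs from 1.20 to 2.63.

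The wider family was listed as 63 relatives, of which 61 were measured and the others not analysed here. Of these 7 rose, 8 fell and 46 did not pass in limma, or 24.6% called beside 13.6% of all genes, with a median log2 difference of 0.03. This list and the gene lists that follow were made with earlier results of these data known. Their shares called are therefore a description, and nothing is read from them. Both means were under 7 for 36 relatives, of which 0 passed as higher (2 at an unadjusted p under 0.05) and 2 as lower. Among the other 25, 7 rose and 6 fell. Omitting untreated replicate 1 left 8 relatives called, and omitting TGFβ replicate 1 left 9. In what follows, each call that did not hold with 1 array omitted is given with that array, the adjusted p and mostly the log2 difference without it, where untreated 1 stands for untreated replicate 1 and so on.

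Iglon5, a GPI-anchored IgLON molecule of neurons, read 7.01 and 6.86 on the untreated and 10.19 and 10.13 on the TGFβ arrays. It rose by 3.22 ± 0.09 on the log2 scale (SE, limma adjusted p = 2.55e-04), with the groups far apart. Igsf11, a homophilic molecule of brain and testis, read 8.12 and 7.71 on the untreated and 10.02 and 9.66 on the TGFβ arrays. It rose by 1.93 ± 0.17 (limma adjusted p = 0.00221), also without overlap.

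Among the nectins, which join afadin at adherens junctions, Nectin1 rose by 0.88 on the log2 scale (limma adjusted p = 0.00847) and Nectin3 by 0.75 (adjusted p = 0.0384). Nectin2 and Nectin4 differed by 0.11 and -0.01 without passing. Pvr, the poliovirus receptor and a partner of Nectin3, rose by 0.39 (adjusted p = 0.0451), and Cadm4, a relative of Cadm1, by 0.31 (adjusted p = 0.0413). Cd200, an inhibitory ligand for myeloid cells, rose by 0.95 (adjusted p = 0.012). Nectin3 lost its call on omitting untreated 1 (0.70, p 0.132) or untreated 2 (0.79, p 0.0904). Omission of any array ended the calls of Pvr (p 0.0591 to 0.211) and Cadm4 (p 0.107 to 0.185).

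Amigo2, an adhesion molecule with leucine-rich repeats and an immunoglobulin domain, read 8.61 and 8.21 on the untreated and 6.11 and 6.10 on the TGFβ arrays. It fell by 2.31 ± 0.14 on the log2 scale (SE, limma adjusted p = 6.51e-04). This was the largest fall among the 61 relatives, to a mean under 7. Amigo1 fell by 0.34 (adjusted p = 0.0399), which omission of any array ended (p 0.0606 to 0.189). Amigo3 differed by 0.20 without passing.

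Cxadr, the coxsackievirus and adenovirus receptor, fell by 0.85 on the log2 scale (limma adjusted p = 0.021) and Mpzl2, the epithelial V-like antigen, by 0.84 (adjusted p = 0.00588). Igsf5, a junctional adhesion molecule, fell by 0.67 (adjusted p = 0.0303) with both means under 7, and Mpzl3, a relative of Mpzl2, by 0.57 (adjusted p = 0.0109). Cxadr lost its call on omitting untreated 1 (-0.71, p 0.0777) or TGFβ 1 (-0.65, p 0.0504). Igsf5 lost its call on omitting untreated 1 (-0.53, p 0.113) or TGFβ 1 (-0.53, p 0.0934), and Mpzl3 on omitting untreated 1 (-0.55, p 0.0567). The junctional molecules F11r, Jam2 and Jam3 differed by 0.01, 0.22 and 0.25 without passing.

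Kirrel3, a synaptic relative of the nephrins, fell by 0.78 on the log2 scale (limma adjusted p = 0.0117). Cntn1, a GPI-anchored contactin of neurons, fell by 0.68 (adjusted p = 0.0198) with both means under 7, and lost its call on omitting TGFβ 1 (-0.66, p 0.0717) or TGFβ 2 (-0.71, p 0.0519). Of close relatives of the 9 genes, Ncam2, Nrcam and Chl1 differed by -0.02, 0.08 and 0.06, and Icam2, Icam4 and Icam5 by 0.08, 0.02 and 0.11, all with means under 7.

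**Figure D3:**
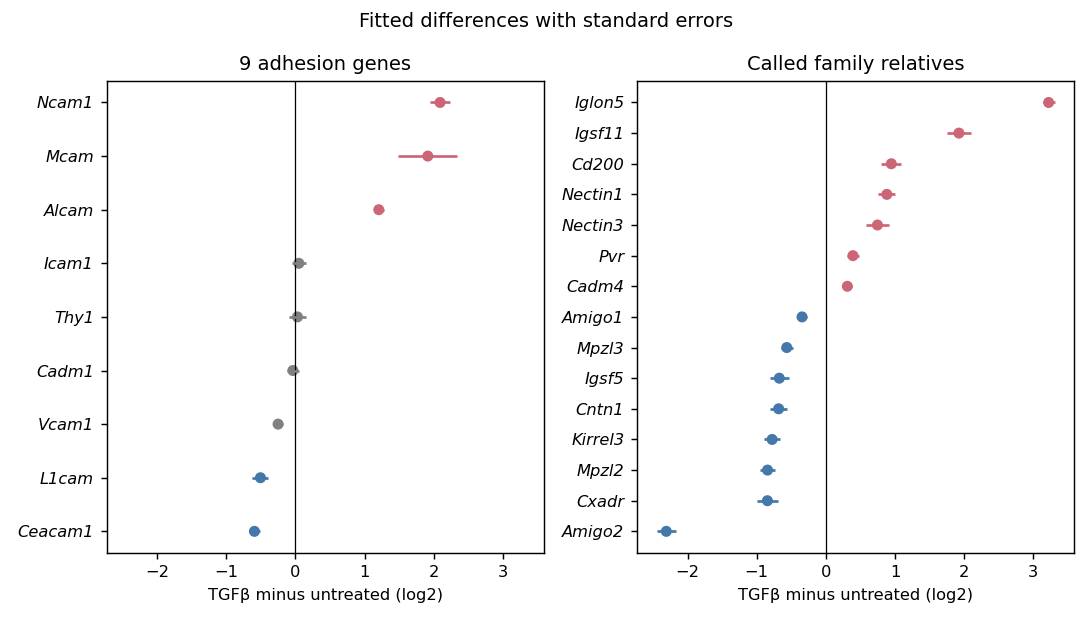
Fitted log2 differences (TGFβ minus untreated, points) with standard errors (horizontal lines) for the 9 adhesion genes (left) and the 15 called relatives (right), in red where called higher, blue where called lower and grey where not called. Among the relatives Iglon5 (3.22) has the largest rise and Amigo2 (-2.31) the largest fall.

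Of 20 ligands and receptors of these molecules 3 rose, 2 fell and 15 did not pass in limma. This is 25% called beside 13.6% of all genes, with a median log2 difference of 0.01. Without TGFβ replicate 2 the number called was 8. Itgb3, which with Itgav forms an integrin that binds L1cam and Thy1, read 6.88 and 7.14 on the untreated and 10.64 and 10.18 on the TGFβ arrays. It rose by 3.40 ± 0.17 on the log2 scale (SE, adjusted p = 4.88e-04), while Itgav differed by -0.12 without passing. Itgb1, the partner of Itga4 in the Vcam1 receptor, rose by 0.81 (adjusted p = 0.00238), and Itga4 read 5.38 to 5.63. Fgfr1, a receptor kinase that Ncam1 and L1cam can engage, rose by 0.62 (adjusted p = 0.0143) and lost its call on omitting TGFβ 1 (0.60, p 0.0546).

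Itgb2, the leukocyte integrin subunit of the Icam1 receptors, read 9.99 and 9.82 on the untreated and 8.72 and 9.25 on the TGFβ arrays. It fell by 0.92 on the log2 scale (limma adjusted p = 0.0258) and lost its call on omitting untreated 1 (-0.83, p 0.0955) or untreated 2 (-1.001, p 0.0514). Itgb7, another partner of Itga4, fell by 1.06 (adjusted p = 0.0151). The Itgb2 partners Itgal and Itgam read 5.74 to 5.83 and 5.27 to 5.34. Of 5 leukocyte markers 0 passed in limma and 1 had an unadjusted p under 0.05, namely Cd68, which read 9.63 and 8.87 on the untreated and 7.60 and 8.33 on the TGFβ arrays. The 5 averaged 6.98 and 6.70 on the untreated and 6.39 and 6.61 on the TGFβ arrays, and their part in the falls of Itgb2 and Itgb7 was not tested.

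Of 17 cytoplasmic partners 3 rose, 3 fell and 11 did not pass, or 35.3% called beside 13.6% of all genes. Their median log2 difference was 0.03. The partners were bright, with a median untreated level of 10.00 against 7.30 for all genes. Without the dimmer 50% of genes, 4 of 12 partners or 33.3% were called, beside 24.6% of all genes. Fyn, a Src family kinase downstream of Ncam1 and Thy1, read 7.19 and 7.33 on the untreated and 8.87 and 8.80 on the TGFβ arrays. It rose by 1.57 ± 0.08 (SE, limma adjusted p = 5.23e-04), and its relative Src differed by 0.25 without passing. Ank3, an ankyrin that binds the tail of L1cam, fell by 1.23 (adjusted p = 0.00753), whereas Ank2 rose by 0.42 (adjusted p = 0.0451) with both means under 7. Ezr, which links membrane proteins to actin, fell by 0.72 (adjusted p = 0.00359), and its relatives Rdx and Msn differed by 0.09 and 0.24 without passing.

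Epb41l3, a band 4.1 protein that binds the tail of Cadm1, fell by 0.56 on the log2 scale (limma adjusted p = 0.00926) with both means under 7. Its relative Epb41l1 rose by 0.48 (adjusted p = 0.0192), and lost its call on omitting untreated 2 (0.40, p 0.0906), TGFβ 1 (0.47, p 0.0681) or TGFβ 2 (0.49, p 0.0534). Ank2 lost its call on omitting untreated 1 (0.47, p 0.107), untreated 2 (0.37, p 0.181) or TGFβ 2 (0.32, p 0.127).

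Of 6 enzymes that modify or cut these molecules 2 fell and 4 did not pass in limma. This is 33.3% called beside 13.6% of all genes, with a median log2 difference of -0.18. The enzymes had a median untreated level of 9.87 against 7.30 for all genes. Without the dimmer 50% of genes, 2 of 4 enzymes were called, beside 24.6% of all genes. Adam17, a sheddase of Icam1, Vcam1 and L1cam, fell by 0.62 (adjusted p = 0.00678). Adam8, another metalloprotease, fell by 0.93 (adjusted p = 0.0226) and lost its call on omitting untreated 2 (-0.73, p 0.0619) or TGFβ 2 (-0.74, p 0.0606), which left 1 enzyme called. Adam10, a sheddase of L1cam, differed by 0.07 without passing. St8sia2 and St8sia4, which add polysialic acid to Ncam1, read 6.52 to 6.90 and 5.17 to 5.40 over the 4 arrays, all under 7.

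Icam1 and Vcam1 are classical targets of NF-κB, and 17 other targets were measured. Of these 1 rose, 5 fell and 11 did not pass in limma, or 35.3% called beside 13.6% of all genes. Their median log2 difference was -0.21. These targets had a median untreated level of 8.52 against 7.30 for all genes. Without the dimmer 50% of genes, 4 of 11 targets or 36.4% were called, beside 24.6% of all genes. The chemokine Ccl2 fell by 0.55 (adjusted p = 0.018) and the receptor adaptor Traf1 by 0.53 (adjusted p = 0.0235), the latter with both means under 7. The pathway inhibitors Nfkbie, Tnfaip3 and Nfkbia fell by 0.37 (adjusted p = 0.0379), 0.36 (adjusted p = 0.042) and 0.31 (adjusted p = 0.04995). Birc3, an inhibitor of apoptosis, rose by 0.94 (adjusted p = 0.0079).

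The number of these targets called was 1 without untreated replicate 1, 1 without untreated replicate 2 and 2 without TGFβ replicate 1. Omission of any array ended the calls of Nfkbie (p 0.0661 to 0.194), Tnfaip3 (p 0.0829 to 0.201) and Nfkbia (p 0.0934 to 0.224). Ccl2 lost its call on omitting untreated 1 (-0.58, p 0.0618), untreated 2 (-0.52, p 0.0777) or TGFβ 1 (-0.44, p 0.0532). Traf1 lost its call on omitting untreated 1 (-0.49, p 0.106), untreated 2 (-0.57, p 0.0653) or TGFβ 1 (-0.41, p 0.0663).

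**Figure D4:**
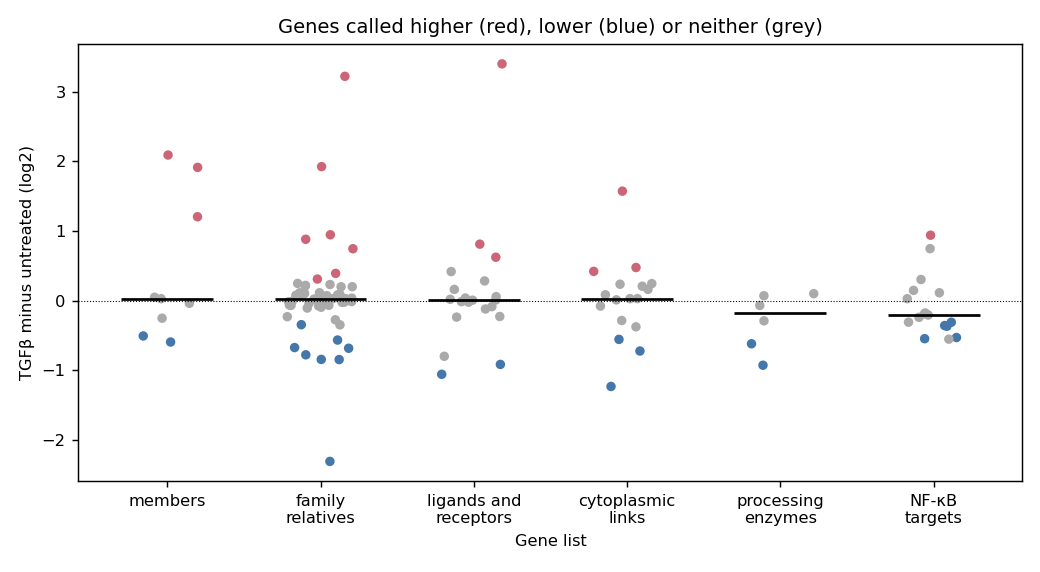
Log2 differences (TGFβ minus untreated) of every measured gene among the 9 adhesion genes (members) and 5 related lists, in red where called higher, blue where called lower and grey where not called, with a black bar at each median. The medians run from -0.21 for NF-κB targets to 0.03 for cytoplasmic links, and the largest rises are Itgb3 (3.40) and Iglon5 (3.22).

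Genes most alike in pattern were found by the root mean square distance over the 4 arrays between log2 values centred on each gene's mean. Values were not scaled, so near genes are mostly those with a TGFβ difference of like size. Cotl1, for example, differed by 2.14 beside 2.09 for Ncam1, and Adamts6 by 1.25 beside 1.21 for Alcam. Joint regulation was not tested. Nearest to Ncam1 were Cotl1, an actin-binding protein (distance 0.052), Rflnb (0.0623) and Adgrl1, an adhesion G protein-coupled receptor (0.0872). Nearest to Alcam were Adamts6, a metalloprotease (0.0359), Epg5, an autophagy gene (0.0386), and Nkain2 (0.0418). Nearest to Mcam were Lrrc4c, a synaptic adhesion molecule (0.217), Tll1, a matrix protease (0.243), and Plod2, a collagen lysyl hydroxylase (0.256). The untreated means of Lrrc4c and Tll1 were under 7 (4.97 and 5.59), and that of Plod2 was 8.59. Within a distance of 0.2 lay 233 genes around Alcam, 26 around Ncam1 and 0 around Mcam.

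Other cell types that carry these molecules were followed by their markers. Of 6 fibroblast markers Pdgfrb rose by 1.01 on the log2 scale (limma adjusted p = 0.00111), Col1a1 rose by 0.46 (adjusted p = 0.0273) and 4 did not pass, while 3 of the 6 were higher at an unadjusted p under 0.05. Among those that did not pass, Pdgfra read 8.33 and 8.41 on the untreated and 8.64 and 9.08 on the TGFβ arrays, a difference of 0.49 (adjusted p = 0.0965), Col1a2 differed by 0.07, and Dcn and Lum read 4.94 to 5.30 and 4.27 to 4.41. The 6 averaged 6.64 and 6.67 on the untreated and 6.90 and 7.05 on the TGFβ arrays. Of 5 neural and glial markers Sox10 rose by 0.46 (limma adjusted p = 0.0151) and 4 did not pass, while 2 were higher at an unadjusted p under 0.05. Sox10 read 6.82 and 6.89 on the untreated and 7.28 and 7.34 on the TGFβ arrays. Both means were under 7 for 4 of the 5. The 5 averaged 6.10 and 6.16 on the untreated and 6.34 and 6.31 on the TGFβ arrays. Col1a1 lost its call on omitting untreated 1 (0.37, p 0.128), TGFβ 1 (0.43, p 0.0963) or TGFβ 2 (0.49, p 0.0608), and Sox10 on omitting untreated 1 (0.42, p 0.0873), untreated 2 (0.50, p 0.0506) or TGFβ 2 (0.43, p 0.0517). The part of these markers in the Ncam1 and Mcam values was not tested.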

How the data were processed

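Total RNA was amplified to cDNA, labelled and hybridised to Affymetrix arrays, per the labels' protocols. The authors deposited log2 values per probe set, made with RMA in oligo per the submitters' processing notes (version, annotation and genome build not given in these sources). RMA quantile-normalizes arrays and compresses dim differences, and no detection calls were used. Of 35556 probe sets 21789 list 1 symbol, and the brightest stood for each of 19938 genes.

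TGFβ and untreated arrays were compared in limma 3.58.1 (R 4.3.3, two-sided, 2 residual and 3.77 prior degrees of freedom, no filter), with Benjamini-Hochberg adjusted p over every gene. A permutation test on 2 and 2 arrays has a smallest p of 0.333 and was not used. The procedure was run on simulated data drawn from limma's own variance model with equal spread in both groups. Its behaviour under unequal spread was not tested. The 9 genes, lists and motifs were chosen with earlier results of these data known. The rule names all 9 genes, each called relative, up to 4 called rises and 4 called falls per other list, and the 3 most alike genes where a difference is at least 1. Other genes were chosen after their values were seen. Same-numbered replicates were checked for pairing. Alternatives covered normalization, dim genes, probe set averaging, variance model, blocks and omitted arrays. Promoter sequences are RefSeq's (GRCm38.p6).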

Additional observations from a re-analysis of the deposited data

How the results depend on the processing

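With 1 array omitted the number of genes called, 2720 in all arrays, lay between 1535 and 2260, the lone array of a group being assumed to vary like the other group. Deviations of same-numbered replicates correlated at -0.21 over genes, so the numbers were not taken to pair the samples. The replicate block gave 1624 calls, with 3 of the 9 adhesion genes, 8 relatives, 1 processing enzyme and 2 NF-κB targets. A crossed block, chosen after seeing the data, gave 3640. Omitting single arrays gave 3 to 4 of the 9 adhesion genes, 8 to 11 relatives, 4 to 8 ligands and receptors, 4 to 5 cytoplasmic partners, 1 to 2 enzymes and 1 to 4 NF-κB targets. Ncam1 and Alcam passed under all 13 alternatives and Ceacam1 under the 11 that kept it, as both filters on dim genes removed it. Mcam was lost under 4 and L1cam under 6. Of 39 other genes named by the rule 19 passed under every alternative that kept them and 20 were lost under at least 1. Among the 9 genes 5 values changed sign, all of Icam1, Cadm1 or Thy1, which did not pass. The 9 genes were picked with the comparison in view, so passing again on the same arrays is no support for them.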

Other observations

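Of the 9 adhesion genes 5 lie on chromosome 9 in the RefSeq table (GRCm38.p6), in the order Icam1, Thy1, Mcam, Cadm1 and Ncam1. From Thy1 to Ncam1 there are 80 measured protein-coding genes, of which 12 or 15% were called, beside 13.6% of all genes. Between Thy1, which read under 7, and Mcam, which rose, lie 2 of them. Among the 29 nearest neighbours of the 5 called adhesion genes, 3 on each side, 4 were called higher and 1 lower, or 17.2% in all, and 24 did not pass.

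A pair of paralogous ubiquitin ligases was among these neighbours, chosen after their values were seen. Cbl, near Mcam, read 9.87 and 9.72 on the untreated and 10.78 and 10.45 on the TGFβ arrays, a rise of 0.82 on the log2 scale (limma adjusted p = 0.0123). Cblb, near Alcam, read 10.49 and 10.37 on the untreated and 10.95 and 10.93 on the TGFβ arrays, a rise of 0.51 (limma adjusted p = 0.0121) whose call was lost on omitting untreated 2 (0.45, p 0.0635). The other called neighbours were Nfkbiz (0.90, limma adjusted p = 0.00284), Ttc12 (0.62, limma adjusted p = 0.0487) and Lipe (-0.92, limma adjusted p = 0.0216). Ttc12 lost its call on omitting untreated 2 (0.42, p 0.126), TGFβ 1 (0.72, p 0.079) or TGFβ 2 (0.53, p 0.151), and Lipe on omitting untreated 1 (-0.88, p 0.0774) or untreated 2 (-0.97, p 0.0542).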
